A study of Mus musculus with 12 samples.

Results

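The transcripts of 6 surface markers of blood stem and progenitor cells were followed across the study, Spn (ENSMUSG00000051457), Cd24a (ENSMUSG00000047139), Cd34 (ENSMUSG00000016494), Kit (ENSMUSG00000005672), Cd44 (ENSMUSG00000005087) and Cd93 (ENSMUSG00000027435). They were picked by symbol, 6 of the 57010 genes listed, and all 6 were among the 15425 genes that passed the filter on low counts. Because their LSD1cKO and LSD1WT values were known when they were picked, their genotype differences are given as a description and carry no test. Site and ligature were not used in the choice and are tested, though earlier results of these data were known when it was made.

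The study asked what the histone demethylase LSD1 (encoded by Kdm1a) does in osteoclast precursors of mice with ligature-induced periodontitis. The polyA RNA sequenced here came from marrow of female mice, flushed from the mandible or femur and grown for 2 days with the cytokines M-CSF and RANKL. LSD1cKO mice lose floxed LSD1 through LysM-Cre, a Cre expressed in myeloid cells, and LSD1WT mice are their controls. The 12 libraries form 6 conditions of 2 libraries each. In each genotype these are mandible of mice ligated for 7 days, femur of mice ligated for 7 days, and femur of unligated mice. The series description gives an age of 2 months and the study's sequencing methods give an older age. By the labels the libraries come from 9 mice, 5 LSD1WT and 4 LSD1cKO. Mice LSD1WT 1L, LSD1cKO 1L and LSD1cKO 2L gave both sites, and the other mice gave 1 library each.

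Total counts per library ran from 21375805 to 32526751. Kdm1a was at 61.2 to 71.3 CPM (read counts scaled to the size and composition of the library) in the 6 LSD1WT libraries and at 15.6 to 24.3 CPM in the 6 LSD1cKO libraries. A pair of femur LSD1WT libraries, replicate 2 of the ligated and replicate 2 of the unligated condition, stood apart from the rest. Their 19 osteoclast genes (led by Mmp9, Ctsk, Acp5 and Ckb) summed to 1556 and 1775 CPM, against 15900 to 49620 CPM in the other 10 libraries, so defining markers of the labelled preosteoclasts were nearly absent. Their 10 macrophage markers (led by Lyz2, Csf1r, Cd68 and Adgre1) summed to 49210 and 24630 CPM, against 2835 to 10940 CPM elsewhere. The 2 mandible LSD1WT libraries differed from each other less than any other pair (biological coefficient of variation 0.0247, against 0.0985 to 0.700). Their typical difference was 1.24 times that of counting error alone, against 2.26 to 9.36 times in the other pairs. Whether they come from 2 mice, as labelled, was not tested. The library name of mandible LSD1WT replicate 3 says femur while its title says mandible, and the title was followed. In bulk RNA, fewer cells of a type and less RNA per cell cannot be told apart.

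These proteins sit on the cell surface of stem and progenitor cells and are used to sort them. Spn (CD43, leukosialin) and Cd34 are heavily glycosylated sialomucins that affect adhesion, and Cd24a encodes a small mucin-like protein held in the membrane by a lipid anchor. Kit is the receptor tyrosine kinase for stem cell factor. Cd44 is the main receptor for hyaluronan and also binds osteopontin, and Cd93 is a receptor with a C-type lectin domain found on early progenitors, B lineage precursors, monocytes and endothelium. As marrow progenitors become macrophages and osteoclasts they lose Kit and Cd34, while Cd44 stays on.

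Promoter sequence was at hand in RefSeq (mouse build GRCm38.p6) for 4 of the 6 members, Spn, Cd34, Kit and Cd44. The 250 bases upstream of the start are shown for Spn, Cd34 and Cd44. Spn was higher in LSD1cKO in every culture, Cd34 was high in 1 culture, and Cd44 differed little with all libraries. Capitals mark matches, on either strand, to 6 core motifs. The letters searched were AAATCA for the repressors GFI1 and GFI1B, AGGAAG for PU.1 and AGATAA for GATA factors. Further letters were TGTGGT for RUNX factors, AACGG for MYB and GAAANNGAA for the interferon-response element. GFI1 and GFI1B are repressors that recruit LSD1 to DNA, and PU.1 is the master regulator of the myeloid lineage. All 3 sequences read 5′ to 3′ along the gene, the Spn window being chr7:127137824-127138073 (minus strand), the Cd34 window chr1:194938571-194938820 (plus strand) and the Cd44 window chr2:102901666-102901915 (minus strand).
Spn: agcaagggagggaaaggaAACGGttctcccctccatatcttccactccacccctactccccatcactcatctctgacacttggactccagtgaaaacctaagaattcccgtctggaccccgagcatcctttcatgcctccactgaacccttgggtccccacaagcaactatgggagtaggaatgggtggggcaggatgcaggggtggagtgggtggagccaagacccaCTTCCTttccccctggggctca
Cd34: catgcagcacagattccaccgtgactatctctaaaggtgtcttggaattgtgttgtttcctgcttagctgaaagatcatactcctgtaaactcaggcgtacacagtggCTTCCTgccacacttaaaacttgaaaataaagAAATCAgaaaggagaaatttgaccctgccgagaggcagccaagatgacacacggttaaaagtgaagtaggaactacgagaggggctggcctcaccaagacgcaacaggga
Cd44: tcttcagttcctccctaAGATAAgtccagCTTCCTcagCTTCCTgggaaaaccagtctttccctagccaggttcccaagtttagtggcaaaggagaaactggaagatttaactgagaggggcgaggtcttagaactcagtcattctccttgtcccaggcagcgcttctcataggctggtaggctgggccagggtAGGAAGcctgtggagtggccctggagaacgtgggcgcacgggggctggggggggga
The Spn window held 1 PU.1 match, at −22 to −17 counted from the start, and 1 MYB match. The Cd34 window held 1 GFI1 match, at −110 to −105, and 1 PU.1 match, and the Cd44 window held 3 PU.1 matches and 1 GATA match. Both RefSeq windows of Kit, which overlap almost fully, held the same PU.1 match, at −222 to −217 and −226 to −221 from their own starts. No matches overlapped one another in these windows. Among 32851 RefSeq promoter windows of the same 250 bases, 29.5% held the PU.1 letters, 14.5% the MYB letters, 12.4% the GFI1 letters, 9.99% the GATA letters, 14% the RUNX letters and 7.13% the interferon-response core. These are letter matches and not measured binding.

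Spn and Cd24a were higher in LSD1cKO than in LSD1WT in all 3 cultures. In mandible, Spn stood at 23.0 and 27.9 CPM for LSD1WT and 139 and 185 CPM for LSD1cKO. In ligated femur, LSD1WT stood at 34.3 and 23.5 CPM and LSD1cKO at 158 and 154 CPM. In unligated femur, LSD1WT stood at 30.9 and 27.4 CPM and LSD1cKO at 166 and 115 CPM. The lowest LSD1cKO library was thus above the highest LSD1WT library, and the 2 femur LSD1WT libraries with few osteoclast transcripts had the Spn level of the other LSD1WT libraries. The difference was 6.38-fold in mandible (log2 2.67, SE 0.29), 5.40-fold in ligated femur (log2 2.43, SE 0.28) and 4.83-fold in unligated femur (log2 2.27, SE 0.28).

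Cd24a followed the same order. Mandible values were 15.6 and 16.4 CPM for LSD1WT and 59.4 and 60.7 CPM for LSD1cKO. Ligated femur values were 19.3 and 11.9 CPM for LSD1WT and 56.5 and 56.0 CPM for LSD1cKO. Unligated femur values were 17.8 and 18.4 CPM for LSD1WT and 50.1 and 47.0 CPM for LSD1cKO. The 6 LSD1cKO libraries lay between 47.0 and 60.7 CPM, and none overlapped with LSD1WT. The fold difference was 3.75 in mandible (log2 1.90, SE 0.24), 3.60 in ligated femur (log2 1.85, SE 0.24) and 2.68 in unligated femur (log2 1.42, SE 0.23). Spn and Cd24a were the 2 members of 6 with every LSD1cKO library above every LSD1WT library, a pattern found in 1.98% of the genes tested. Leaving out the 2 femur LSD1WT libraries that stood apart cannot undo that pattern. No other member joined them then, and the share of genes was 7.13%. The pair moved together over the 12 libraries (Pearson's r of log2 CPM 0.988, n = 12 libraries, a description of libraries that share their genotype groups).

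**Figure D1:**
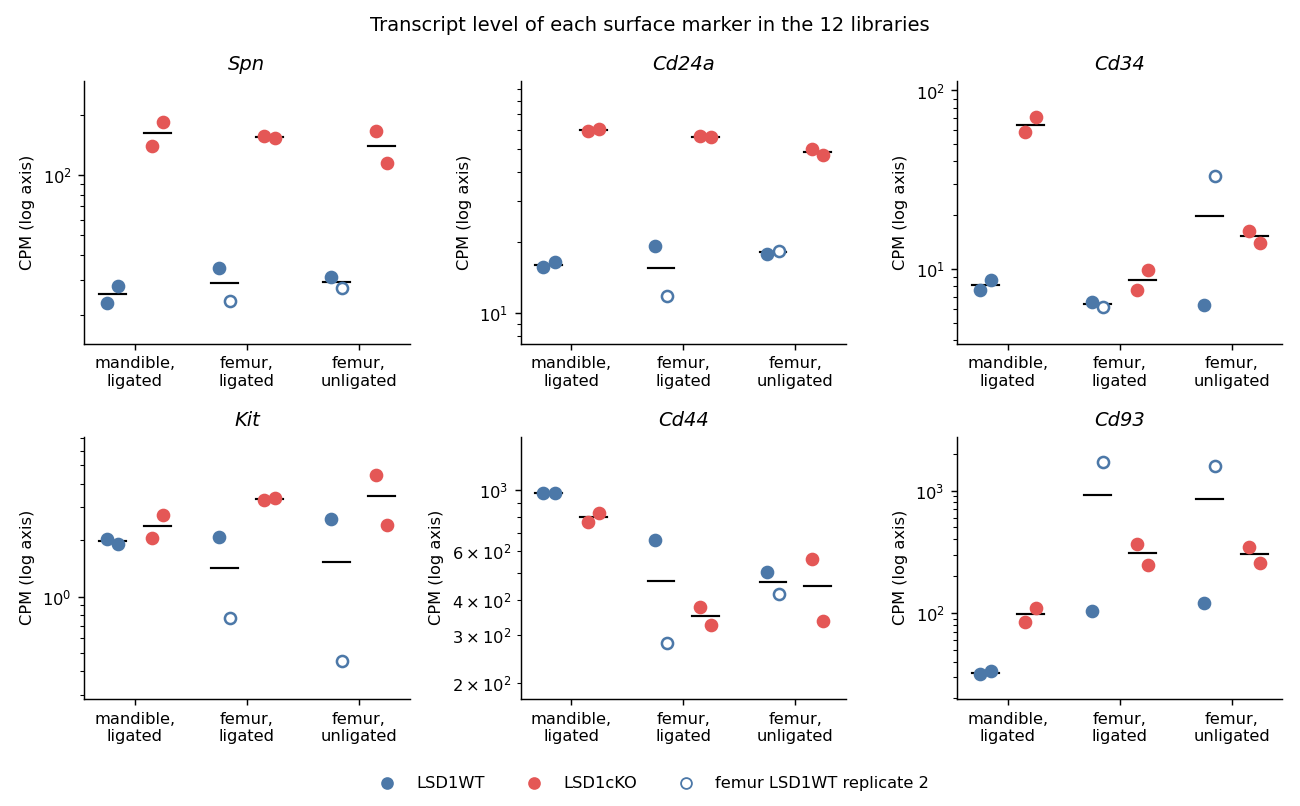
Each panel plots the CPM of 1 member (log axis) in the 12 libraries by culture, with LSD1WT in blue, LSD1cKO in red, open circles for the femur LSD1WT replicate 2 libraries and bars at the mean of 2. Spn and Cd24a separate by genotype in every culture, Cd34 is highest in mandible LSD1cKO (58.2 and 70.6 CPM), and the open circles stand apart for Cd93 (1724 and 1572 CPM) and Kit (0.770 and 0.456 CPM).

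Cd34 was higher in mandible LSD1cKO than in any other condition. Mandible LSD1WT stood at 7.59 and 8.62 CPM and mandible LSD1cKO at 58.2 and 70.6 CPM, a 7.94-fold difference (log2 2.99, SE 0.64). Ligated femur LSD1WT stood at 6.53 and 6.11 CPM and LSD1cKO at 7.58 and 9.86 CPM, a 1.38-fold difference (log2 0.46, SE 0.60). Unligated femur LSD1WT stood at 6.26 and 33.2 CPM and LSD1cKO at 16.4 and 14.0 CPM. The second unligated LSD1WT library, at 33.2 CPM, was above both LSD1cKO libraries of its culture, and it is a library that nearly lacked osteoclast transcripts. With it the difference was −0.38 on the log2 scale (SE 0.59), and without both femur LSD1WT replicate 2 libraries it was 1.29 (SE 0.25, with the lone LSD1WT library assumed to vary like the other conditions). Part of Cd34 lies opposite the antisense gene Gm16897, and since the strand setting of the counting is not given in the sources used here, reads from the 2 genes cannot be told apart.

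Kit was low throughout, between 11 and 125 counts per library. The mandible values were 2.04 and 1.91 CPM for LSD1WT and 2.06 and 2.72 CPM for LSD1cKO. The ligated femur values were 2.07 and 0.770 CPM for LSD1WT and 3.26 and 3.38 CPM for LSD1cKO. The unligated femur values were 2.60 and 0.456 CPM for LSD1WT and 4.45 and 2.42 CPM for LSD1cKO. The groups overlapped in unligated femur, and the 2 lowest of the 12 values were those of the femur LSD1WT libraries that stood apart. The log2 difference was 0.28 in mandible (SE 0.74), 1.21 in ligated femur (SE 0.75) and 1.17 in unligated femur (SE 0.75). Without those 2 libraries the femur differences were 0.77 (SE 0.42) and 0.41 (SE 0.41). Kit was at 2.19 in ligated femur without LSD1WT replicate 1 of that culture, and in unligated femur at 2.97 without its LSD1WT replicate 1 and at 0.68 without its LSD1cKO replicate 1.

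Cd44 lay slightly below LSD1WT in the LSD1cKO mandible. Its mandible libraries were at 972 and 974 CPM for LSD1WT and 769 and 827 CPM for LSD1cKO (log2 difference −0.29, SE 0.40). Its ligated femur libraries were at 660 and 281 CPM for LSD1WT and 377 and 324 CPM for LSD1cKO (log2 difference −0.42, SE 0.40). Its unligated femur libraries were at 506 and 421 CPM for LSD1WT and 565 and 336 CPM for LSD1cKO (log2 difference −0.04, SE 0.40). The genotypes overlapped in both femur cultures. The ligated femur difference was −0.92 without LSD1WT replicate 2. It changed sign, to 0.41, without LSD1WT replicate 1, where replicate 2 alone stood for LSD1WT. Without both femur LSD1WT replicate 2 libraries the difference was −0.83 (SE 0.29) in ligated femur and −0.16 (SE 0.29) in unligated femur. In unligated femur it ran from −0.44 to 0.32 over the 12 fits with 1 library left out. A small nuclear RNA gene, Gm23731, lies within Cd44 on the opposite strand.

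Cd93 changed direction with the 2 femur LSD1WT libraries that stood apart. Mandible LSD1WT libraries had 31.6 and 33.5 CPM and mandible LSD1cKO libraries 83.8 and 111 CPM, a 2.99-fold difference (log2 1.58, SE 1.25). Ligated femur LSD1WT libraries had 104 and 1724 CPM and LSD1cKO libraries 366 and 247 CPM. Unligated femur LSD1WT libraries had 121 and 1572 CPM and LSD1cKO libraries 349 and 258 CPM. In both femur cultures the LSD1cKO libraries lay between the 2 LSD1WT libraries. With all libraries the log2 difference was −1.58 in ligated femur (SE 1.24) and −1.48 in unligated femur (SE 1.24). Without the replicate 2 libraries it was 1.64 (SE 0.32) and 1.34 (SE 0.31), and over the 3 cultures together it moved from −0.58 (SE 0.86) to 1.54 (SE 0.15).

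**Figure D2:**
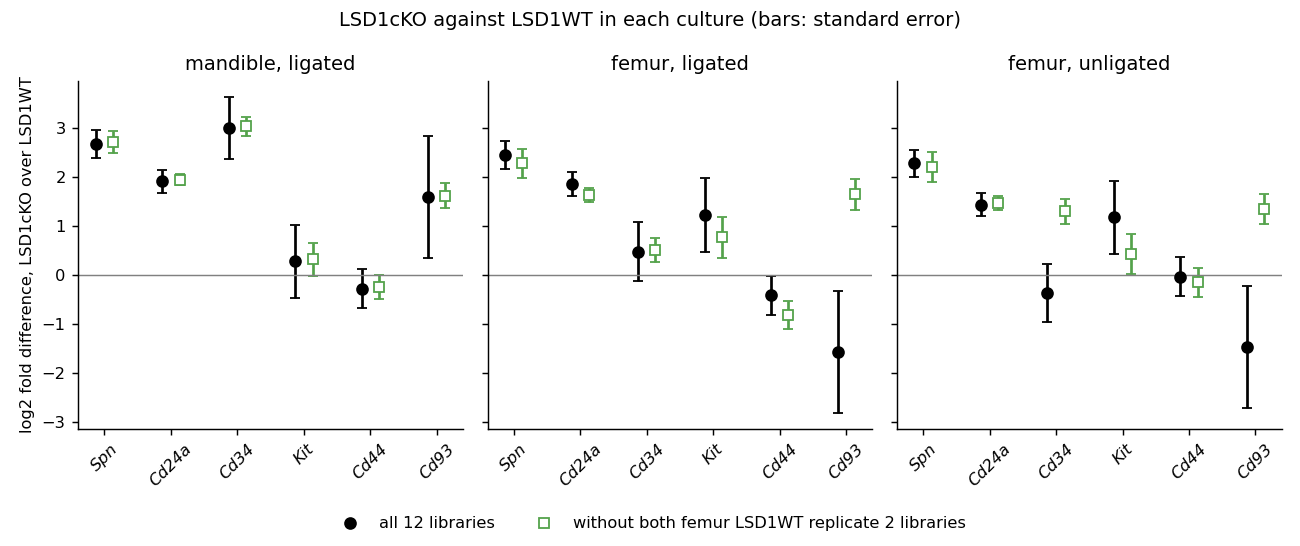
Points give the log2 fold difference of LSD1cKO over LSD1WT for each member in each culture, with bars for the standard error, from all 12 libraries (black circles) and without both femur LSD1WT replicate 2 libraries (green squares). Spn and Cd24a lie above 0 in every panel, Cd34 is at 2.99 in mandible and 0.46 in ligated femur, and Cd93 in the femur panels moves from −1.58 and −1.48 to 1.64 and 1.34.

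Counted over the members, 5 of 6 had both mandible LSD1cKO libraries above both mandible LSD1WT libraries (Spn, Cd24a, Cd34, Kit and Cd93), against 34.1% of the genes tested. Cd44 was the 1 member with both below, against 34.8% of genes. In ligated femur 4 of 6 were above without overlap (Spn, Cd24a, Cd34 and Kit), against 14.8% of genes, and in unligated femur 2 of 6 (Spn and Cd24a), against 9.82%. Nothing is read from these counts, since the same contrast chose the members. Over the 3 cultures together the log2 difference was 2.46 for Spn (SE 0.15), 1.73 for Cd24a (SE 0.14), 0.97 for Cd34 (SE 0.59; 1.79, SE 0.38, without both femur LSD1WT replicate 2 libraries), 0.88 for Kit (SE 0.41), −0.25 for Cd44 (SE 0.21) and −0.58 for Cd93 (SE 0.86; 1.54, SE 0.15, without those 2 libraries). Ordered from the highest difference down, Spn was number 131 and Cd24a number 390 of the 15425 genes. The median was 0.93 over the 6 members and −0.06 over all genes tested, and 1.63 and 0.023 without those 2 libraries.

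Relative to transcript length, Kit was the least abundant member in all 6 conditions. Cd44 was the most abundant in 4 of 6, and Cd93 in the 2 femur LSD1WT conditions, whose Cd93 means rest on replicate 2. In both mandible conditions Cd93 ranked below Spn and Cd24a. In RPKM (CPM divided by the exon length in kilobases, given as condition means), Cd44 ran from 51.7 in ligated femur LSD1cKO to 144 in mandible LSD1WT. Cd93 ran from 4.87 in mandible LSD1WT to 137 in ligated femur LSD1WT. Spn ran from 5.43 to 34.7 RPKM and Cd24a from 6.04 to 23.3 RPKM, both lowest in LSD1WT and highest in mandible LSD1cKO. Cd34 ran from 0.867 to 8.83 RPKM, and Kit from 0.159 to 0.386 RPKM. Within a gene, the 3 LSD1cKO conditions of Spn stood at 162 ± 32.4, 156 ± 2.44 and 141 ± 36.3 CPM (mean ± SD, n = 2 each), neighbours that did not differ beyond their spread, and its 3 LSD1WT conditions at 25.4 ± 3.42 to 29.1 ± 2.48 CPM did not either. For Cd34 the step from mandible LSD1cKO (64.4 ± 8.75 CPM) to the next condition, unligated femur LSD1WT (19.7 ± 19.1 CPM), was wider than both spreads. Unligated femur LSD1cKO (15.2 ± 1.64 CPM) lay within the spread of that condition and above ligated femur LSD1cKO (8.72 ± 1.62 CPM), a ligature difference that did not pass the test given below. Ligated femur LSD1cKO and mandible LSD1WT (8.11 ± 0.731 CPM) overlapped, and ligated femur LSD1WT was lowest (6.32 ± 0.301 CPM).

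Mandible was compared with ligated femur within each genotype, to ask whether the members differ by the site the marrow came from. The series holds no unligated mandible. A difference of site and one of nearness to the ligature therefore cannot be told apart, here or in the interaction of genotype and site below. In LSD1cKO, Cd34 and Cd44 were higher and Cd93 lower in mandible. Cd34 was 7.38-fold higher (64.4 ± 8.75 against 8.72 ± 1.62 CPM, mean ± SD, n = 2 each; log2 2.88, SE 0.64), Cd44 was 2.28-fold higher (798 ± 41.6 against 351 ± 37.3 CPM; log2 1.19, SE 0.41), and Cd93 was 3.15-fold lower (97.2 ± 18.9 against 306 ± 83.9 CPM; log2 −1.66, SE 1.25). The log2 differences of Spn, Cd24a and Kit were 0.06 (SE 0.27), 0.10 (SE 0.23) and −0.47 (SE 0.74). Cd24a, Cd34 and Cd44 had both mandible libraries above both femur libraries, against 35.3% of genes, and Kit and Cd93 had both below, against 35.0%. With edgeR's quasi-likelihood test on all 12 libraries, the adjusted p was 0.138 for Cd34, 0.234 for Cd44 and 0.609 for Cd93, and none of the 6 passed. No gene passed in that test (0%), while 15.0% of genes had an unadjusted p under 0.05, Cd34 and Cd44 among them. DESeq2 called 759 genes, with Cd34 the 1 member called (adjusted p = 0.000514, against 0.112 for Cd44 and 0.484 for Cd93).

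The site result turned on how the spread was estimated. The 4 LSD1cKO libraries come from 2 mice that each gave both sites. With the mouse as a block in those 4 libraries alone, edgeR's test called Cd34 (log2 2.89, SE 0.16, adjusted p = 1.14e-09), Cd93 (log2 −1.64, SE 0.20, adjusted p = 8.68e-06) and Cd44 (log2 1.19, SE 0.18, adjusted p = 6.79e-05), 3 of the 6 members against 38.2% of the 14475 genes tested there. Spn, Cd24a and Kit did not pass by the same edgeR test (adjusted p = 0.879, 0.657 and 0.159). With 2 mice and terms for both mouse and site, the p-values of that fit rest mostly on spread shared across genes. Without both femur LSD1WT replicate 2 libraries, which belong to neither side of this comparison but enter its spread, the same 3 passed, at adjusted p = 0.000452 for Cd34, 0.00329 for Cd93 and 0.014 for Cd44 (edgeR), against 21.7% of 16008 genes. With limma voom, in which the mouse entered as a random effect, no gene passed (1540 at an unadjusted p under 0.05), and the adjusted p of Cd34 was 0.294. The correlation between libraries of 1 mouse was estimated at −0.391 in that fit. A negative value widens the error of a difference within mice, so the lack of calls there cannot decide the site question. The sizes hardly moved, and Cd34 stayed between 2.68 and 3.08 on the log2 scale whichever 1 library was left out. The mandible LSD1cKO libraries also differed from the ligated femur LSD1cKO libraries in summed macrophage markers (2835 and 3564 against 10620 and 10940 CPM), dendritic cell markers (79.0 and 78.6 against 270 and 251 CPM) and endothelial markers (4.40 and 6.21 against 43.8 and 46.4 CPM). The part of these cells in the Cd34, Cd44 and Cd93 differences was not tested. Summed endothelial markers were lower in the mandible, where Cd34 was higher, while Cdh5 alone was at 0.481 and 0.834 CPM there and at 0.350 and 0.307 CPM in the femur. In femur LSD1cKO that endothelial sum was mostly the single gene Kdr, as given below, so it is no measure of endothelial cell content.

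In LSD1WT, Cd93 had the largest site difference of the 6 members. It was 28.1-fold lower in mandible (32.5 ± 1.30 against 914 ± 1146 CPM; log2 −4.81, SE 1.43, adjusted p = 0.182 by edgeR's test), and most of that size came from femur LSD1WT replicate 2. With both femur LSD1WT replicate 2 libraries left out the log2 difference was −1.65 (SE 0.28, adjusted p = 0.0514 by edgeR). Cd44 was 2.07-fold higher in mandible (973 ± 1.19 against 470 ± 268 CPM; log2 1.05, SE 0.41, adjusted p = 0.221 by edgeR), and 0.59 on the log2 scale without those libraries (SE 0.30). Cd34 was at 8.11 ± 0.731 against 6.32 ± 0.301 CPM (log2 0.36, SE 0.60), and Spn, Cd24a and Kit had log2 differences of −0.18 (SE 0.27), 0.04 (SE 0.23) and 0.46 (SE 0.75). Cd34 and Cd44 did not overlap between the sites, mandible being above, as in 29.2% of genes, and Cd93 was below without overlap, as in 31.5%. No gene passed edgeR's adjusted threshold (0%), 19.8% had an unadjusted p under 0.05, and Cd44 and Cd93 among them, and DESeq2 called 1142 genes, with Cd93 the 1 member called (adjusted p = 0.00103). Leaving out ligated femur LSD1WT replicate 1 put Cd93 (adjusted p = 0.0134) and Cd44 (adjusted p = 0.015) past edgeR's threshold, as it did 23.2% of the genes tested, and the ligated femur LSD1WT condition was then replicate 2 alone, a library that nearly lacked osteoclast transcripts.

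**Figure D3:**
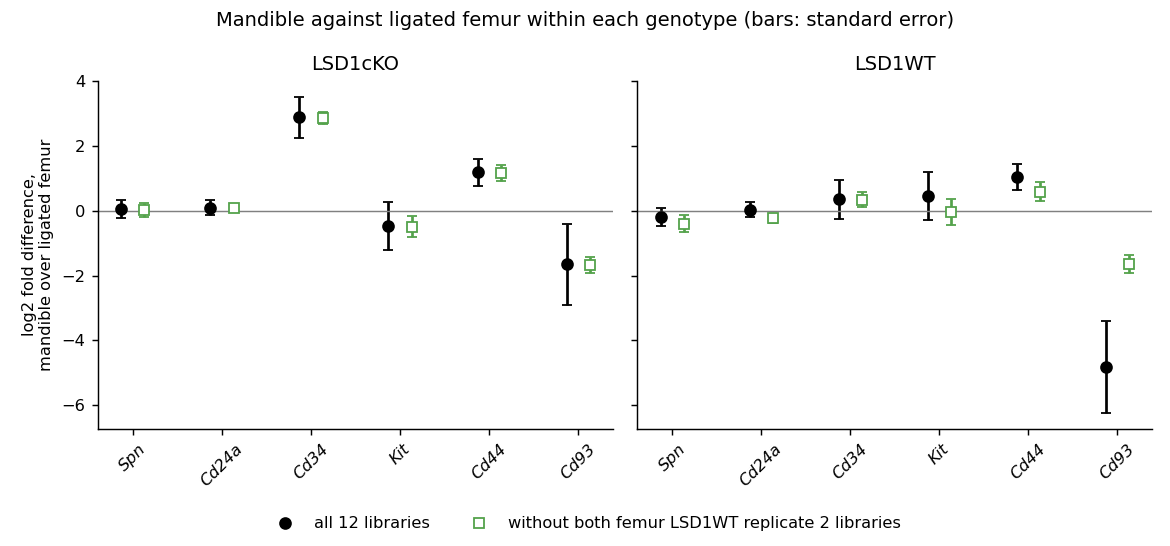
Points give the log2 fold difference of mandible over ligated femur for each member in LSD1cKO (left) and LSD1WT (right), with bars for the standard error, from all 12 libraries (black circles) and without both femur LSD1WT replicate 2 libraries (green squares). Cd34 is at 2.88 in LSD1cKO and 0.36 in LSD1WT, and Cd93 in LSD1WT moves from −4.81 to −1.65.

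Whether the site difference itself depended on LSD1 was tested as an interaction. For Cd34 the mandible-to-femur difference was 5.76-fold larger in LSD1cKO than in LSD1WT (log2 2.53, SE 0.86, adjusted p = 1 by edgeR's test), and both LSD1cKO mandible libraries were above every other library. Leaving out both femur LSD1WT replicate 2 libraries gave 2.52 (SE 0.30, adjusted p = 0.196 by edgeR). For Cd93 the interaction was 3.16 (SE 1.76, adjusted p = 1 by edgeR), and −0.03 (SE 0.38) without those libraries. No gene passed for this interaction with edgeR (0%), 0.966% had an unadjusted p under 0.05 (Cd34 the 1 member among them), and DESeq2 called 1 gene, which was not a member.

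Ligature was compared in the femur only. In LSD1cKO, Cd34 was at 8.72 ± 1.62 CPM with ligature and 15.2 ± 1.64 CPM without (n = 2 each; log2 −0.80, SE 0.60, adjusted p = 1 by edgeR). In LSD1WT it was at 6.32 ± 0.301 and 19.7 ± 19.1 CPM (log2 −1.64, SE 0.61, adjusted p = 1 by edgeR). The LSD1WT difference came from the unligated library at 33.2 CPM, since it was 0.01 on the log2 scale without both femur LSD1WT replicate 2 libraries. The other 5 members had ligature differences between −0.36 and 0.21 on the log2 scale in LSD1cKO and between −0.22 and 0.11 in LSD1WT, with standard errors of 0.23 to 1.21. No gene passed edgeR's adjusted threshold in LSD1cKO (0%, with 0.959% at an unadjusted p under 0.05 and 1 gene called by DESeq2) or in LSD1WT (0%, 0.765% and 2 genes, Cd34 being the 1 member under an unadjusted 0.05). The interaction of genotype and ligature gave 0% after adjustment and 0.344% before it, no member among them, and DESeq2 called 0 genes.

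Cd93 and Cd44 were set beside the marker levels of the cells in each library. Cd93 was at 1724 and 1572 CPM in the 2 libraries with the highest summed macrophage markers (49210 and 24630 CPM), and at 31.6 to 366 CPM in the other 10. Within the mandible, where macrophage markers summed to 3347 and 3397 CPM in LSD1WT and 2835 and 3564 CPM in LSD1cKO, Cd93 was 2.99-fold higher in LSD1cKO. The 3 genes most like Cd93 over the 12 libraries were Lipa (the lysosomal acid lipase, r = 0.994), Rhoq (0.993) and Bcl9 (0.992), and Lipa stood at 2149 and 2055 CPM in those 2 libraries against 296 to 942 CPM elsewhere. Cd44 was lowest in ligated femur LSD1WT replicate 2 (281 CPM), which had the lowest summed osteoclast genes, but was at 421 CPM in the other such library, above 3 of the 10 libraries with osteoclast genes. The 3 genes most like Cd44 were Selenoi (0.987), Ncl (nucleolin, 0.986) and Eaf1 (0.983). The part of cell makeup in these levels was not tested.

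**Figure D4:**
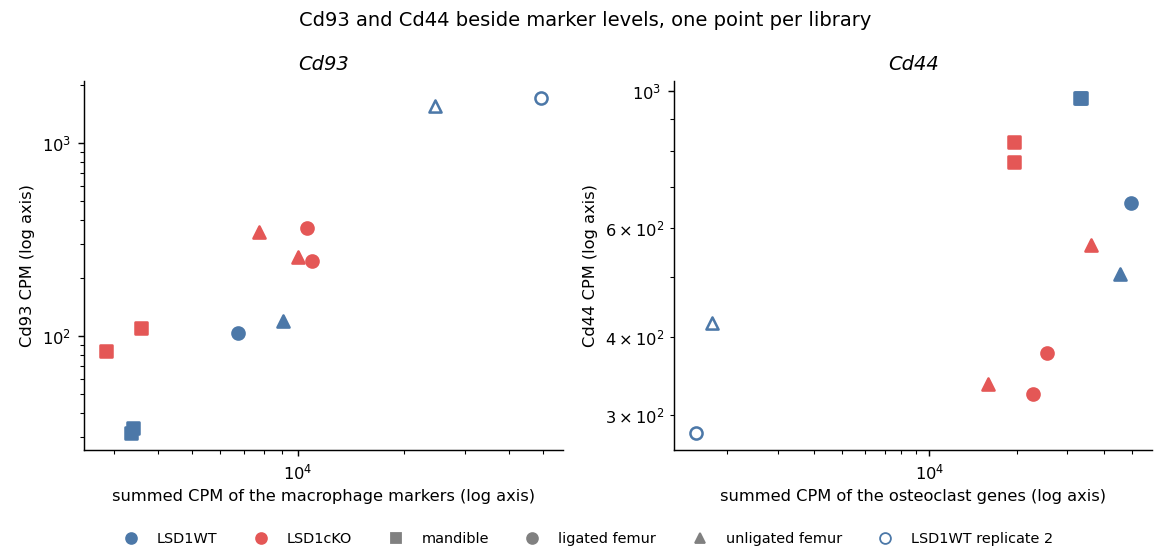
The left panel plots Cd93 against the summed CPM of 10 macrophage markers and the right panel Cd44 against the summed CPM of 19 osteoclast genes (log axes), 1 point per library, with colour for genotype, shape for culture and open symbols for femur LSD1WT replicate 2. The 2 open symbols are highest on both axes for Cd93 (1724 and 1572 CPM) and lowest in osteoclast genes (1556 and 1775 CPM).

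Likeness to other genes over the 12 libraries (Pearson's r of log2 CPM) is given as a description. The genes most like Spn were Klf4 (a zinc-finger transcription factor of monocytes, r = 0.981), Slc16a3 (a lactate transporter, 0.974) and Gm41307 (0.973). Klf4 was at 9.60 to 16.1 CPM in LSD1WT and at 29.3 to 41.3 CPM in LSD1cKO. The genes most like Cd24a were Gm41307 (0.982), Klf4 (0.982) and 5830415G21Rik (0.972), so 2 of 3 were shared with Spn. For Cd34 they were Lancl3 (0.974), AW554918 (0.946) and Senp1 (0.943), and in mandible LSD1cKO Senp1 (a SUMO protease) had 45.5 and 50.8 CPM, against 27.7 to 44.1 CPM elsewhere. For Kit they were Nrg1 (neuregulin, 0.977), Nadk (NAD kinase, 0.971) and Gstt1 (0.97), and Nrg1 was at 0.103 and 0.0414 CPM in the 2 femur LSD1WT libraries that stood apart. Among the members themselves, the pair most opposed was Cd44 and Cd93 (r = −0.825, n = 12).

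Other genes of the same surface and the same lineage were tested over the 3 cultures together, with culture as a term (edgeR's quasi-likelihood test, adjusted over 15425 genes). In that test 3.00% of genes were higher and 0.532% lower in LSD1cKO. The lists here and below were chosen with earlier results of these data known, so their calls are no independent support. Of 18 other stem and progenitor surface genes 14 could be tested, and 3 rose and 0 fell, with a median log2 difference of 0.14 against −0.06 over all genes. Ly6a (Sca-1, the antigen that defines mouse stem cell sorting gates) was 27.4-fold higher (log2 4.78, SE 0.30, adjusted p = 3.56e-05). It was at 1.75 and 3.12 CPM in mandible LSD1WT, at 4.79 to 12.9 CPM in femur LSD1WT, at 58.7 and 100.5 CPM in mandible LSD1cKO and at 141 to 277 CPM in femur LSD1cKO, with no overlap. Esam, an adhesion molecule of stem cells, megakaryocytes and endothelium, was 3.62-fold higher (log2 1.86, SE 0.39, adjusted p = 0.0283 by edgeR), with 0.0828 to 0.771 CPM for LSD1WT and 1.51 to 2.25 CPM for LSD1cKO. Procr, the endothelial protein C receptor, was 2.81-fold higher (log2 1.49, SE 0.28, adjusted p = 0.0172 by edgeR), with 0.857 to 2.69 CPM for LSD1WT and 2.99 to 5.02 CPM for LSD1cKO. The 4 most abundant genes of the list were Cd9, Cd200, Cd48 and Il6ra, with log2 differences of 0.56, −0.43, 0.19 and −0.14, and none passed. By site, 0 of the 14 passed edgeR's adjusted threshold, and 0% of all genes did. At an unadjusted p under 0.05 by edgeR, 4 in LSD1cKO and 8 in LSD1WT were lower in mandible. The share of all genes, in either direction, was 15.0% in LSD1cKO and 19.8% in LSD1WT. The medians of the list were −0.82 and −1.46 on the log2 scale. The LSD1WT values include ligated femur replicate 2, which nearly lacked osteoclast transcripts, and the list was not counted by site without it.

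When both femur LSD1WT replicate 2 libraries were left out, 14.4% of 16008 genes were called higher and 9.75% lower, and of the same 14 surface genes 9 rose and 1 fell. The 3 above were among the 9, with Ly6a 34.7-fold higher (adjusted p = 4.58e-06). The 6 that joined them were Il7r (the IL-7 receptor, log2 1.48), Csf3r (the G-CSF receptor, 1.38), Cd33 (1.34), Cd48 (1.01), Il6ra (0.89) and Cd9 (0.33), and the 1 that fell was Cd200 (−1.02). Cd33 was at −0.68 and Il6ra at −0.14 on the log2 scale with all libraries, so their direction turned on those libraries.

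**Figure D5:**
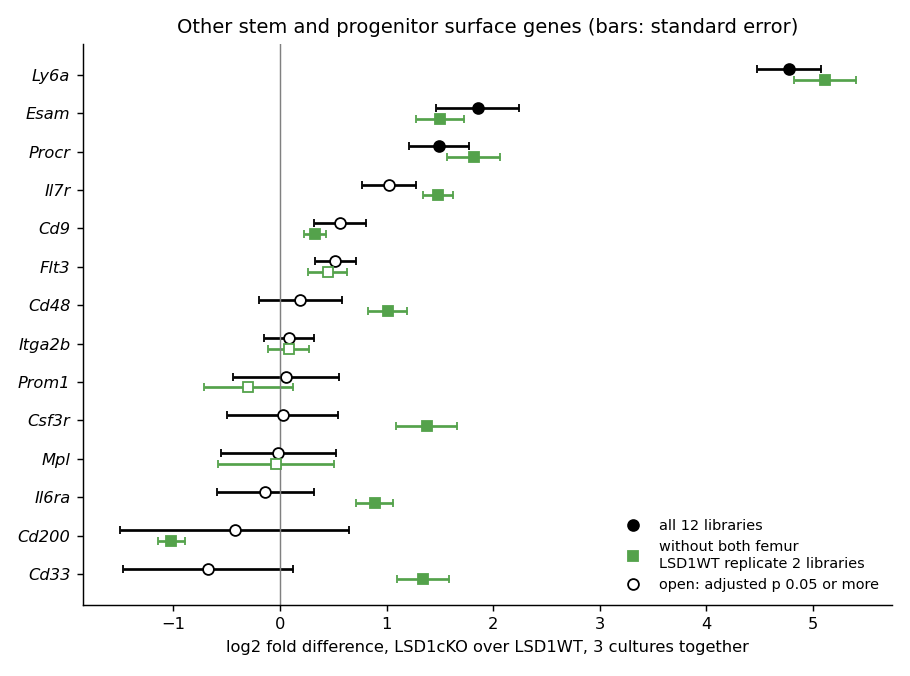
Points give the log2 fold difference of LSD1cKO over LSD1WT over the 3 cultures for the 14 other surface genes tested, with bars for the standard error, from all 12 libraries (black) and without both femur LSD1WT replicate 2 libraries (green), filled where the adjusted p was under 0.05. Ly6a, Esam and Procr are filled in both sets, at 4.78, 1.86 and 1.49 with all libraries, and Cd33 and Il6ra change sides between the sets.

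Of 15 stem and progenitor transcription factors 13 could be tested, and 1 rose and 0 fell (median log2 −0.14). The 1 was Gfi1b, a repressor of erythroid, megakaryocyte and stem cells that works with LSD1, 17.7-fold higher (log2 4.15, SE 0.71, adjusted p = 0.0106 by edgeR). It was at 0.0828 to 4.08 CPM in LSD1WT and at 38.4 to 57.6 CPM in LSD1cKO, and the 2 lowest values were those of the libraries that stood apart. Without them it was 12.3-fold higher (adjusted p = 8.98e-07), and 4 of 14 factors rose and 0 fell. The 4 were Gfi1b, Ikzf1 (log2 1.64, adjusted p = 1.65e-05 by edgeR), Gata2 (0.82, adjusted p = 0.0193) and Lmo2 (0.73, adjusted p = 0.00693). With all libraries Ikzf1 was at 0.56, Gata2 at 1.27 and Lmo2 at −0.57, of the opposite sign, and none of these passed. Spi1 (PU.1) was at 0.11 with all libraries and −0.11 without the 2, and Runx1 at −0.17 and 0.25, and neither passed in either fit.

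Among ligands and binding partners of the members, 12 of 17 could be tested, and 1 rose and 0 fell (median log2 0.03). Cd74, the invariant chain that partners Cd44 as the MIF receptor, was 2.86-fold higher (log2 1.51, SE 0.32, adjusted p = 0.0294 by edgeR), at 131 and 137 CPM in mandible LSD1WT and 233 and 292 CPM in mandible LSD1cKO. Kitl, which encodes the ligand of Kit, was at 6.92 to 22.1 CPM in LSD1WT and at 5.02 to 7.80 CPM in LSD1cKO (log2 −1.23, SE 0.31, adjusted p = 0.0599 by edgeR). Kitl was at −0.61 without both femur LSD1WT replicate 2 libraries (adjusted p = 0.0282 by edgeR), and 3 of 12 then rose (Ezr, Siglec1 and Cd74) and 2 fell, the other that fell being Spp1 (osteopontin, a Cd44 ligand, −0.36). Msn, Lgals3, Spp1 and Cd74 were the most abundant, and Msn (moesin, which links Spn and Cd44 to actin) had a log2 difference of −0.12 with all libraries.

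The enzymes that build or shed mucin sugars gave 1 that rose and 0 that fell of 10 tested (11 listed, median log2 0.10). Fut7, the fucosyltransferase that makes selectin ligands on carriers such as Spn and Cd44, was 5.09-fold higher (log2 2.35, SE 0.29, adjusted p = 0.00259 by edgeR). It was at 1.21 to 6.58 CPM in LSD1WT and at 13.3 to 19.4 CPM in LSD1cKO, with no overlap. Leaving those 2 femur libraries out, 3 rose (Fut7, Gcnt1 and Adam17) and 3 fell (Mmp14, Hyal1 and Hyal2, the last 2 hyaluronidases). Mmp14, Adam10, St3gal1 and Adam17 were the most abundant, with log2 differences of −0.35, 0.07, 0.23 and 0.16 with all libraries. Of the relatives of Cd34 and Cd93, 2 of 5 could be tested, Podxl (log2 −1.13) and Thbd (thrombomodulin, −0.87), and neither passed (0 at an unadjusted p under 0.05), while Podxl fell with those 2 libraries left out (−1.45, adjusted p = 0.0425 by edgeR) and Thbd was at 0.34 (adjusted p = 0.214 by edgeR).

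Markers of other cells that carry these proteins were read beside the members in the same test, and their part in the members' values was not tested. Of 10 endothelial markers 4 could be tested (Kdr, Esam, Egfl7 and Cdh5) and 2 rose, Kdr, the VEGF receptor (4.66-fold, adjusted p = 0.0107 by edgeR), and Esam. The list summed to 18.3 to 46.4 CPM in femur LSD1cKO, of which Kdr made up 15.9 to 44.1 CPM, to 4.40 and 6.21 CPM in mandible LSD1cKO and to 3.18 to 7.74 CPM in LSD1WT. Cldn5, Robo4 and Sox17, named for their values, were at 0 in all 12 libraries, and Cdh5 was at 0.194 to 1.37 CPM.

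Mast cell and basophil markers summed to 0.621 to 3.45 CPM in LSD1WT and 3.92 to 7.73 CPM in LSD1cKO, led by Gata2 and Hdc, and 0 of 2 passed (1 at an unadjusted p under 0.05). Of 8 megakaryocyte markers tested (led by Pf4, Vwf, Ppbp and Itga2b) 1 rose, Vwf (2.15-fold, adjusted p = 0.0405 by edgeR). That list summed to 27.3 to 99.7 CPM apart from 918 and 451 CPM in the 2 libraries that stood apart. Granulocyte progenitor and neutrophil markers (led by S100a9, Ngp, S100a8 and Ltf) summed to 92.2 to 306 CPM, with 0 of 10 past the adjusted or the unadjusted threshold. B lineage markers summed to 0.844 to 10.4 CPM (0 of 3 passed, 2 at an unadjusted p under 0.05) and T and NK cell markers to 3.55 to 18.0 CPM (0 of 2, and 0 unadjusted). Erythroid markers summed to 0.0647 to 3.54 CPM (0 of 1, and 1 unadjusted). Dendritic cell markers (led by H2-Ab1, Clec10a, Itgax and Zbtb46) summed to 39.4 to 270 CPM (0 of 9, and 3 unadjusted). Stromal markers (led by Col1a1, Sparc, Col1a2 and Dcn) summed to 60.4 and 61.2 CPM in mandible LSD1WT and to 0.787 to 35.2 CPM elsewhere (0 of 7, and 1 unadjusted). Osteoclast genes gave 0 of 19 (0 unadjusted) and macrophage markers 0 of 10 (1 unadjusted).

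With the 2 femur LSD1WT libraries that stood apart left out, 15 of 19 osteoclast genes fell in LSD1cKO, with a median log2 difference of −0.70, and 4 of 10 macrophage markers rose (Adgre1, C1qb, C1qc and Fcgr1). In that fit 2 of 2 mast cell markers, 2 of 5 endothelial, 1 of 9 megakaryocyte, 1 of 7 B lineage and 1 of 9 dendritic cell markers rose. Of 3 T and NK cell markers 1 fell, of 9 stromal markers 2 fell, and 0 of 10 granulocyte markers passed.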

How the data were processed

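Gene expression was measured by polyA RNA sequencing in 12 libraries of cultured mouse preosteoclasts, each assigned to its condition by its title (titles name the LSD1-deleted mice, and library names mark the others as wild type). The authors deposited raw counts of reads per Ensembl gene, without normalization or filter, 1 column per library. Per the submitters' processing notes the tools were FastQC, HISAT2 2.1.0, featureCounts and edgeR, and the build was GRCm39. The annotation release and strand setting are not given in the sources used here, and no coordinates of that build are printed.

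The analysis used R 4.3.3. With edgeR 4.0.16, filterByExpr left 15425 genes, libraries were scaled by TMM, and a quasi-likelihood model with 1 coefficient per condition was fitted to all 12 libraries, which share 1 estimate of the spread. Adjusted p is by Benjamini-Hochberg over all genes tested, held to 0.05. A second model had culture and genotype as terms. SE is the log2 fold change over the root of its F statistic. Log2 CPM used a prior count of 2, and RPKM used exon lengths of GENCODE vM21. Depth was 21375805 to 32526751 counts, and a count of 0 allows up to 3 counts, which was 0.0927 to 0.154 CPM and covers counting error only. The tests were checked on simulated counts with known changes. Recovery of those changes was required only at a spread set below that of these data (biological coefficient of variation 0.419). The check therefore does not show how many real changes the tests would miss here. No genotype p is given for the members.

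The members, the gene lists and their names were chosen with earlier results of these data known, and no list is independent support. Genes were named by rule: the 6 members, Kdm1a, the 3 genes most correlated with each member, the 4 most abundant tested genes of each list, and genes of the 5 lists of related genes that passed in a test. Others were named after their values were seen. Genes were joined to RefSeq promoters by symbol. Alternatives were DESeq2 1.42.0, RLE and upper-quartile scaling, no filter, fits on the compared conditions only, the replicate number or the mouse as a block, voom in limma 3.58.1 with the mouse as a random effect, mandible LSD1WT replicate 3 as femur, both femur LSD1WT replicate 2 libraries left out, and each library left out. Mice LSD1cKO 1L and 2L pair the LSD1cKO sites by label, and their deviations correlated at r = 0.026 over genes. By the labels, replicates of a condition are different mice.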

Additional observations from a re-analysis of the deposited data

Results flagged for a closer look

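One value stood out by its distance from the others of its genotype. Cd34 was at 33.2 CPM in unligated femur LSD1WT replicate 2, while the other 5 LSD1WT libraries lay between 6.11 and 8.62 CPM, a gap of 0.907 of the whole range, which is above the Dixon limit for 6 libraries. The genotype groups span 3 cultures. The rule was applied to 12 groups, 6 members in 2 genotypes, and chance alone marks about 1 group in 20. That library had 1775 CPM of summed osteoclast genes, 24630 CPM of summed macrophage markers and 451 CPM of summed megakaryocyte markers. Its endothelial markers summed to 7.74 CPM, against 18.3 to 46.4 CPM in femur LSD1cKO, where the sum was mostly Kdr. Ligated femur LSD1WT replicate 2, with 1556 CPM of osteoclast genes, 49210 CPM of macrophage markers and 918 CPM of megakaryocyte markers, had Cd34 at 6.11 CPM. The part of these cells in the Cd34 value was not tested.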

How the results depend on the processing

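The site difference of Cd34 in LSD1cKO kept its direction in every alternative and passed edgeR's or DESeq2's threshold in some. Genes called for mandible against ligated femur in LSD1cKO were 0 with all libraries, 329 without a filter, 3466 without both femur LSD1WT replicate 2 libraries, 6101 with the compared conditions alone, 5530 with the mouse replicate block, 759 with DESeq2, and 0 to 688 with 1 library left out, over 0 when any 1 of the 4 femur LSD1WT libraries was dropped. For mandible against ligated femur in LSD1WT they were 0 with all libraries, then 821, 144 and 1142 (no filter, both replicate 2 libraries left out, DESeq2), and 0 to 3759, the 3759 without ligated femur LSD1WT replicate 1. Ligature gave 1 gene in LSD1cKO (DESeq2), and in LSD1WT 1 gene (no filter), 2 genes (DESeq2) and 0 to 31 with 1 library left out (31 without ligated femur LSD1WT replicate 1). The interaction of genotype and site gave 1 gene (DESeq2). For LSD1cKO against LSD1WT the counts in mandible were 0 with all libraries, 45 (no filter), 936 (both replicate 2 libraries left out), 5434 (compared conditions alone), 145 (DESeq2) and 0 to 24 with 1 library left out. In ligated femur they were 1, then 9 (RLE), 93 (no filter), 0 (replicate block), 16 (mandible LSD1WT replicate 3 as femur), 1497 (both replicate 2 libraries left out), 0 (compared conditions alone), 207 (DESeq2) and 0 to 44. In unligated femur they were 0, then 24 (no filter), 396, 122 (DESeq2) and 0 to 16. For LSD1cKO against LSD1WT over the 3 cultures they were 544, then 348 (replicate 3 as femur), 3867 (both left out), 1219 (DESeq2) and 298 to 653, the 298 without ligated femur LSD1cKO replicate 2, and 320 to 327 without either mandible LSD1WT library, mandible LSD1cKO replicate 2 or ligated femur LSD1cKO replicate 1.

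Some differences of small size changed sign. Cd24a, mandible against ligated femur in LSD1WT, was at −0.0531 with the replicate block, −0.23 without both replicate 2 libraries and −0.27 to 0.47 with 1 library left out, and Kit was at −0.0357 without those 2 libraries and −0.072 to 1.39 with 1 library left out. In that comparison Spn ran from −0.44 to 0.155 and in LSD1cKO from −0.19 to 0.22. Larger differences changed sign too when both femur LSD1WT replicate 2 libraries were left out. Cd34 for ligature in LSD1WT went from −1.64 to 0.0096 (−2.38 to −0.04 with 1 library left out). The Cd93 interaction of genotype and site went from 3.16 to −0.0262 (0.03 to 4.02). For LSD1cKO against LSD1WT, Cd93 went from −1.58 to 1.64 in ligated femur and from −1.48 to 1.34 in unligated femur. Cd34 in unligated femur went from −0.38 to 1.29. Why these values moved was not tested. With 2 libraries per condition, and 1 where a library is dropped, the lone library is assumed to vary like the others. By the labels, replicate numbers across conditions name different mice except in the 3 mice that gave both sites. The fit of the compared conditions alone was not run over the 3 cultures, where it would hold all libraries.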
